A study of Saccharomyces cerevisiae with 28 samples.

Results

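The levels of mRNA and of ribosome footprints were described gene by gene in 1 culture of the budding yeast Saccharomyces cerevisiae, the strain named WT (YWG1245, also YAJ3), grown in YPA medium with 2% raffinose at 25 °C and taken before any galactose was added or the temperature was raised. Cycloheximide (0.1 mg/ml) was added before harvest, in this culture and in all others of the series. The labels name no other allele of this strain. Genes were chosen by 1 rule, an mRNA level of at least 10 RPKM (reads scaled by the length of the gene in kilobases and by library size), and 5267 of the 6692 listed open reading frames passed. Of the remainder, 758 lay between 0 and 10 RPKM and 667 were listed at 0 in mRNA. The series holds 28 libraries from 14 cultures of this strain and of a strain named 4Gts, in YPA or SC medium. The other YPA cultures, used below only for comparison, are WT after 30 min with 2% galactose at 25 °C (0 h) and after a further 2 h at 36 °C (2 h), and 4Gts at the same 3 stages; all grew in raffinose. The culture described here gave 1 footprint library and 1 mRNA library, so no value below has a replicate, no test across conditions was made, and the intervals given cover counting error only, not the spread between cultures.

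In ribosome profiling, the stretches of mRNA covered by ribosomes are protected from RNase and sequenced, and footprints per unit of mRNA are read as translation efficiency (TE), an estimate of how densely ribosomes load a message. A yeast message is loaded mainly through the cap-binding complex eIF4F, whose scaffold is eIF4G, after which the small ribosomal subunit scans to the start codon. Raffinose is a sugar that yeast uses through secreted invertase, and it represses respiration less than glucose does.

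Here TE is the footprint RPKM of a gene divided by its mRNA RPKM, and relative TE is that ratio divided by the median ratio of the 5267 genes, 0.756. A relative TE of 1 therefore marks the middle gene and not an absolute rate. RPKM counts length from both sides in the same way, so levels of different genes are compared per length throughout.

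Marker genes were read first as a check of the label. All 8 genes of a-cell mating were measured, among them the pheromone genes MFA2, with 2177 RPKM mRNA, and MFA1, with 742 RPKM mRNA. Of the alpha-cell genes, MF(ALPHA)1 and MF(ALPHA)2 were listed at 0 in mRNA, STE3 was at 1.54 RPKM, and only SAG1, at 12.2 RPKM mRNA and 0.184 RPKM footprints, passed the rule. The galactose genes were low, with mRNA levels of 16.2 RPKM for GAL1, 5.45 for GAL10, 6.81 for GAL7 and 5.93 for GAL2, and invertase, SUC2, was high, with 2187 RPKM mRNA and 2343 RPKM footprints. Both eIF4G genes were present, TIF4631 with 333 RPKM mRNA and 305 RPKM footprints and TIF4632 with 82.7 RPKM mRNA and 80.6 RPKM footprints. GCN2, the kinase that inhibits initiation when amino acids are short, had 0.679 RPKM mRNA (11 reads) and 0.323 RPKM footprints (9 reads). Its mRNA lay between 0.482 and 0.953 RPKM in the 6 YPA mRNA libraries and between 0.0348 and 0.216 RPKM in the 8 SC ones, its footprints between 0.313 and 0.448 RPKM in YPA and between 0.746 and 3.46 RPKM in SC, and the labels name no change in this gene.

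The footprint library held 5623793 reads in genes and the mRNA library 3270059, which were the deepest of the 6 footprint and 6 mRNA libraries in YPA. At 10 RPKM, a gene of 1 kb counted length has a counting error of 13.3% in footprints and 17.5% in mRNA, so the low end of the mRNA range is the least certain. In all 12 YPA libraries 371 genes were listed at 0, and for 81 of those the SC mRNA libraries averaged 10 RPKM or more. They include CUP1-1 and CUP1-2, identical copies of the metallothionein gene. Reads of near-identical copies could thus be missing here, and the values of such genes, TEF1 and TEF2 (elongation factor eEF1A) among them, are uncertain.

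Across the 5267 genes, footprints followed mRNA but spread wider. The SD of log2 levels was 1.68 in mRNA and 2.33 in footprints over the genes with a footprint, and Pearson's r between the log2 levels was 0.867 (Spearman's rho 0.883; across genes of 1 culture, which are not replicates). The major axis of footprints on mRNA had a slope of 1.45. Such a slope exceeds 1 whenever footprints spread wider than mRNA, so alone it does not show how footprints per mRNA go with abundance. Least squares, which puts all error on the footprints, gave a slope of 1.20. Being above 1, this slope says that abundant messages carried on average more footprints per mRNA than scarce ones. The middle 50% of genes lay between 0.642 and 1.5 in relative TE, the 5th percentile was at 0.223 and the 95th at 2.24, so most genes sat within 2-fold of the median and the tail was longer on the low side. Relative TE exceeded 2 in 477 genes, 9.06% of those measured, and was under 0.5 in 865 genes, 16.4%. The counting interval lay wholly above 2 in 246 genes and wholly under 0.5 in 527. The plot of footprints against mRNA shows the highly expressed ribosomal protein and glycolytic genes as a band above the median line, and the mitochondrial genome far below it.

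**Figure D1:**
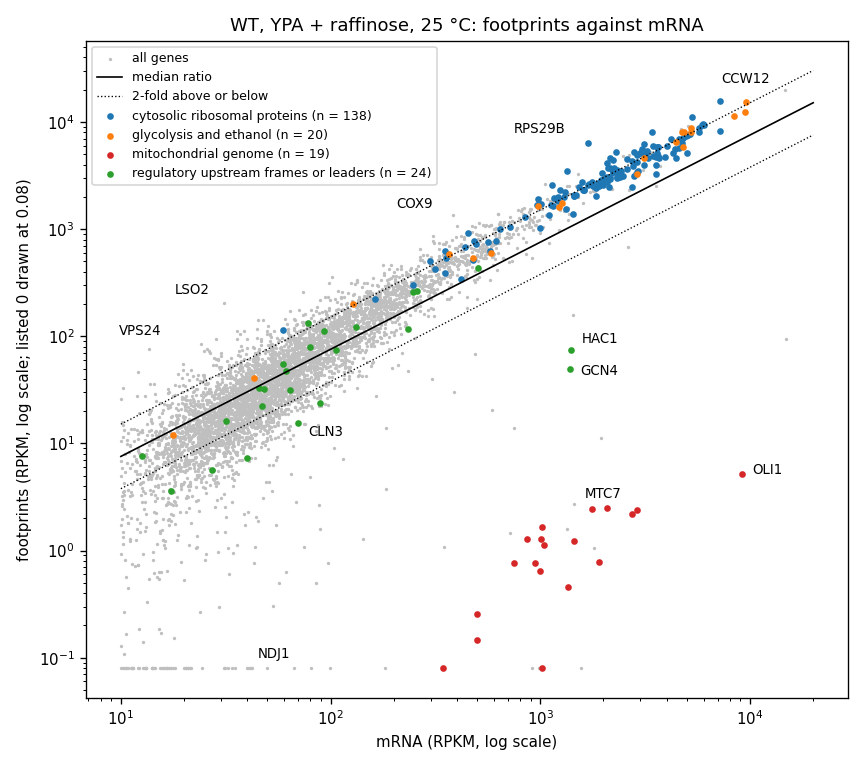
Footprint RPKM against mRNA RPKM of 5267 genes in WT in YPA with raffinose at 25 °C, both on log scales; each point is a gene, the solid line is the median ratio, the dotted lines lie 2-fold above and below it, and genes with footprints listed at 0 are drawn at the bottom. The 138 ribosomal protein genes and 19 of the 20 glycolysis and ethanol genes lie above the median line, and the 19 genes of the mitochondrial genome lie far below the lower one.

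The highest levels of both mRNA and footprints belonged to glycolysis, the cytosolic ribosome and the cell wall. CCW12, a mannoprotein of the cell wall, led the named genes with 14632 RPKM mRNA and 19947 RPKM footprints. TDH3, glyceraldehyde-3-phosphate dehydrogenase, had 9539 RPKM mRNA and 15389 RPKM footprints, and PDC1, the main pyruvate decarboxylase, had 9418 RPKM mRNA and 12454 RPKM footprints. These were followed in footprints by the aldolase FBA1, and by ENO2, an enolase, and PGK1, phosphoglycerate kinase, all enzymes of the same pathway. Of the 15 named genes with the most mRNA, 12 were also among the 15 with the most footprints. Cytosolic ribosomal protein genes took 8 of the 15 places in mRNA and 7 of the 15 in footprints, and 69 and 74 of the first 100. RPL39, a very short ribosomal protein, was second in footprints with 15793 RPKM from 7163 RPKM of mRNA. HYP2, the elongation factor eIF5A, entered the list in footprints, with 9173 RPKM from 5035 RPKM of mRNA, as did YDR524C-B, with 8514 RPKM from 4694.

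One gene of the mRNA list was nearly absent from footprints. OLI1, subunit 9 of the mitochondrial ATP synthase and encoded in the mitochondrial genome, had 9174 RPKM mRNA and 5.15 RPKM footprints. The single highest mRNA value of all, 14886 RPKM with 94.3 RPKM footprints, belonged to Q0182, a frame that the reference table does not name. Its identifier has the form of those of the mitochondrial genome.

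Reads were concentrated in few genes, more so in footprints than in mRNA. The 10 genes with the most reads took 8.48% of the mRNA reads (95% Wilson interval 8.45 to 8.51) and 11.7% of the footprint reads (11.70 to 11.75). The first 100 took 29.7% and 36.9%. 50% of the mRNA reads lay in 346 genes, and 50% of the footprint reads in 211. The 20 glycolysis and ethanol genes above the floor held 8.39% of the mRNA reads and 12.2% of the footprint reads, and the 138 cytosolic ribosomal protein genes added 8.50% and 6.48% of the mRNA reads, for the large and small subunit, and 12.5% and 9.03% of the footprint reads.

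Gene lists by function differed in relative TE, and most lists for abundant housekeeping proteins lay above the median of all genes. Of 47 lists with at least 5 measured members, 19 had a median relative TE over 1.5, 14 lay between 1 and 1.5, and 14 lay under 1. At a floor of 50 RPKM mRNA, which resets the median gene, 6 of 46 lists had a median over 1.5. The lists overlap in part, were chosen with earlier results of these data known, and their medians are descriptions without a test. Counts of members above 2 or under 0.5, given below, stand beside 9.06% and 16.4% of all genes.

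Among the genes of the translation apparatus, the structural proteins of the ribosome stood above the factors in median relative TE. Length and mRNA level, taken up below, are not accounted for in these medians. The 81 large-subunit proteins had a median relative TE of 1.94, with 37 above 2 and none under 0.5, and the 57 small-subunit proteins had 1.96, with 22 above 2. Every one of the 138 lay above 1, from RPL22B at 1.08 (418 RPKM mRNA, 342 RPKM footprints) to RPS29B at 4.98. The 72 proteins of the mitochondrial ribosome, which are made in the cytosol, had a median of 1.77 although their median mRNA was 187 RPKM against 2228 RPKM for the large cytosolic subunit. Initiation factors lay lower: the 12 genes of the cap-binding group had a median of 1.57 and the 19 other initiation factors 1.35. In the cap-binding group the lowest were both eIF4G genes, TIF4631 at 1.21 (interval 1.16 to 1.27) and TIF4632 at 1.29 (1.18 to 1.41). The highest was CAF20, a protein that competes with eIF4G for the cap-binding protein, at 2.04, from 488 RPKM mRNA and 751 RPKM footprints. The cap-binding protein CDC33 itself stood at 1.75 and the poly(A)-binding protein PAB1 at 1.51. Of the remaining initiation factors, TIF5, which triggers GTP hydrolysis by eIF2, was highest at 2.29, and GCD6, a subunit of the exchange factor eIF2B, was lowest at 0.752.

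Elongation and termination factors covered a wide range with a median of 1.15. EFB1, the exchange factor of eEF1, had 3343 RPKM mRNA, 5266 RPKM footprints and a relative TE of 2.08, and HYP2 had 2.41. SUP35, the release factor eRF3, had 190 RPKM mRNA, 76.7 RPKM footprints and a relative TE of 0.534. The 18 tRNA synthetases had a median of 1.42 and the 63 ribosome biogenesis genes one of 1.14. Within ribosome biogenesis the small snoRNP protein GAR1 was highest, at 3.45, and the very large processome proteins UTP20 and UTP10 were lowest, at 0.364 and 0.428. The 7 chaperones that meet the nascent chain at the ribosome had a median of 2.05. Highest were the subunits of the nascent polypeptide-associated complex, EGD1 at 2.51, the alternative subunit BTT1 at 2.33 and EGD2 at 2.27.

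Genes of energy metabolism were also high. The 20 glycolysis and ethanol genes had a median relative TE of 1.90, with 8 above 2 and none under 0.5. CDC19, pyruvate kinase, was highest, with 4726 RPKM mRNA, 8040 RPKM footprints and a relative TE of 2.25, and the alternative decarboxylase PDC5, at 17.8 RPKM mRNA, was lowest at 0.888. The 22 nuclear genes of respiratory complexes III and IV had the highest median of all lists, 2.21, with 13 above 2. COX9, a small subunit of cytochrome oxidase, stood at 4.73, with 382 RPKM mRNA and 1366 RPKM footprints, and CYC1, cytochrome c, stood at 2.85, with 1516 RPKM mRNA and 3270 RPKM footprints. The 16 genes of the ATP synthase had a median of 1.91, mitochondrial import 1.82 and the citric acid cycle 1.73. Small membrane proteolipids and eisosome genes, a list that shares members with those, had 2.14. Antioxidant enzymes had a median of 1.95, with the glutaredoxin GRX1 highest at 2.65 and the superoxide dismutase SOD1 next at 2.56, from 2487 RPKM mRNA and 4812 RPKM footprints. The 10 histone genes had the narrowest range, from HTB1 at 1.66 to HTB2 at 2.13, with an SD of log2 TE of 0.13.

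Heat shock proteins and chaperones had a median of 1.70, and the general stress list had one of 1.45. Of 11 genes of these lists with under 50 RPKM mRNA, 2 were above 2 in relative TE, 2 were under 0.5 and 5 were above 1. Among all genes at 10 to 20 RPKM mRNA, 5.06% were above 2 and 42.8% under 0.5. At 20 to 50 RPKM the shares were 4.20% and 23.3%. HSP12, a small membrane stress protein, had 30.0 RPKM mRNA, 65.7 RPKM footprints and a relative TE of 2.90 (interval 1.92 to 4.49). HSP26, a small heat shock chaperone, had 13.8 RPKM mRNA, 35.8 RPKM footprints and a relative TE of 3.43 (2.27 to 5.38). SSA3, a stress-induced Hsp70 with 12.4 RPKM mRNA, stood at the other end, with 1.48 RPKM footprints and 0.158, and BTN2 and RTN2, at 44.5 and 32.2 RPKM mRNA, stood at 0.485 and 0.643.

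Several lists of regulatory and conditionally used genes lay below the median, though not all: the general stress list stood at 1.45, methionine and sulfur at 1.29 and iron and copper at 1.08. The 6 measured galactose genes had a median of 0.570, and the lowest were GAL80, the repressor of the pathway, at 0.337, the kinase GAL1 at 0.343 and the activator GAL4 at 0.352. The 12 measured genes of the response to ethanol and other poor carbon sources had 0.687, with the isocitrate lyase ICL1 at 0.308, and 6 of the 18 listed genes were under the floor. The list for sucrose use and sugar transport had 0.738. Its glucose sensor RGT2 stood at 0.225 and its invertase SUC2 at 1.42. The 45 transcription factors had a median of 0.832, the 34 protein kinases 0.929, the 19 genes of G1 and S phase 0.827 and the 21 plasma membrane transporters and pumps 0.848. Among the transporters, TRK1, a potassium transporter, had 50.9 RPKM mRNA and 6.32 RPKM footprints, a relative TE of 0.164, whereas the proteolipids PMP1, PMP2 and PMP3 of the same list lay between 2.04 and 2.495. The proton pump PMA1 was close to the middle gene, at 1.06.

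**Figure D2:**
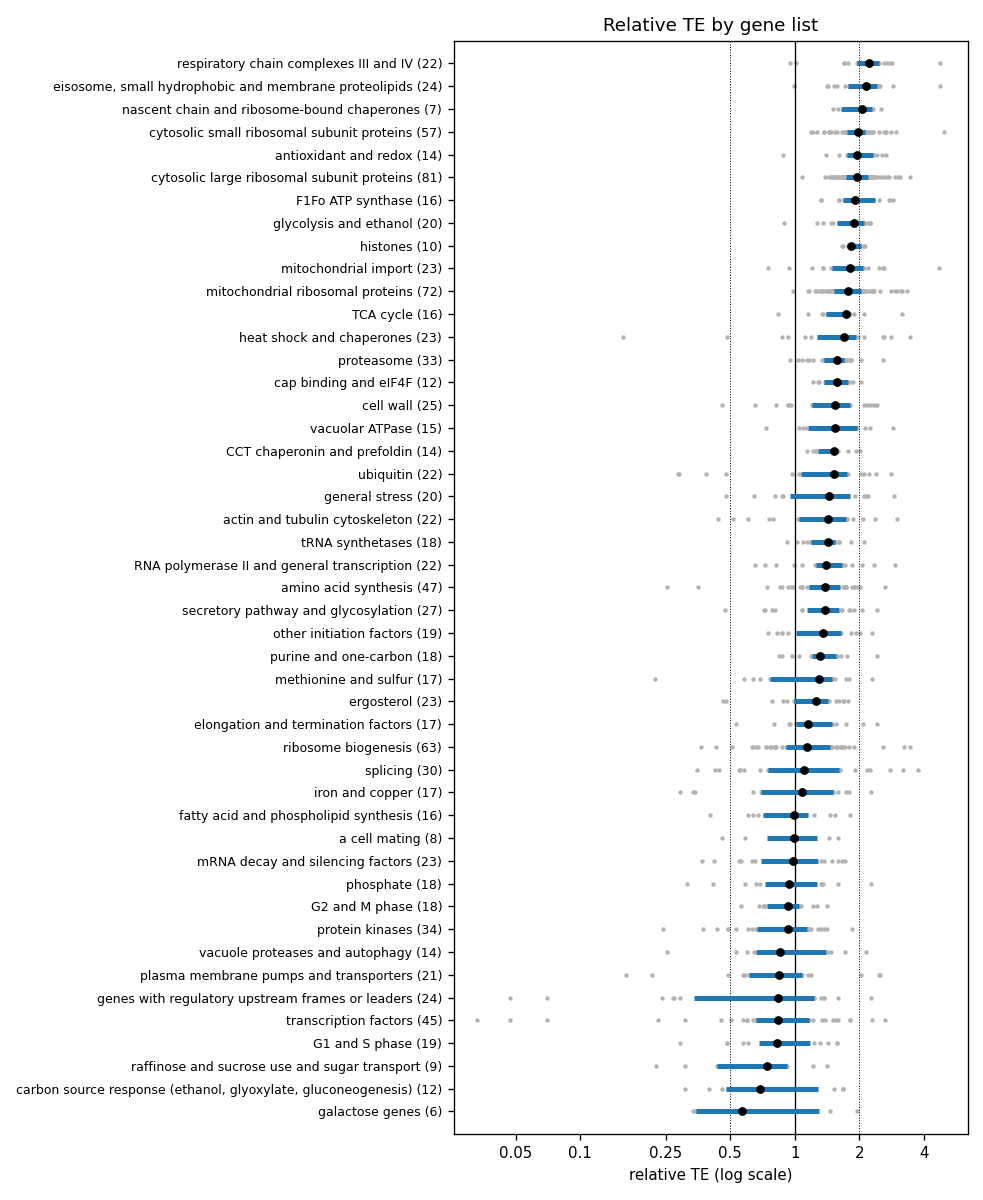
Relative TE on a log scale for 47 gene lists with at least 5 measured members, whose number stands in brackets; grey points are genes, black points medians and blue bars the range from the 25th to the 75th percentile. Medians run from 0.570 for the galactose genes to 2.21 for respiratory complexes III and IV, and the solid line marks the median of all 5267 genes.

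Median relative TE fell with coding length and was higher at higher mRNA. The median was 1.74 in genes under 300 nt, 1.62 from 300 to 600 nt, 1.26 from 600 to 1200 nt, 0.873 from 1200 to 2400 nt and 0.619 beyond 2400 nt. Genes above 2 made up 39.4% of the shortest class and 0.247% of the longest. Genes under 0.5 made up 24.8% of the shortest class, 8.23% of the class from 600 to 1200 nt and 34.6% of the longest. Without the cytosolic ribosomal proteins the medians of the 5 classes were 1.60, 1.54, 1.24, 0.873 and 0.619, so the order did not rest on them. By mRNA level, the median went from 0.581 at 10 to 20 RPKM to 0.992 at 50 to 100 RPKM and 1.89 beyond 1000 RPKM, though mRNA is also the divisor of the ratio. The difference by mRNA level was also seen within length groups. Among genes of at least 600 nt the median went from 0.612 in the lowest mRNA class to 1.70 in the highest, and among shorter genes from 0.449 to 1.94. In the lowest mRNA class the shorter genes thus lay below the longer ones, and in every other class above them. Beyond 1000 RPKM, the 115 cytosolic ribosomal protein genes had a median of 1.96, the 13 glycolysis genes 1.95 and the 66 genes of no such group 1.73.

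**Figure D3:**
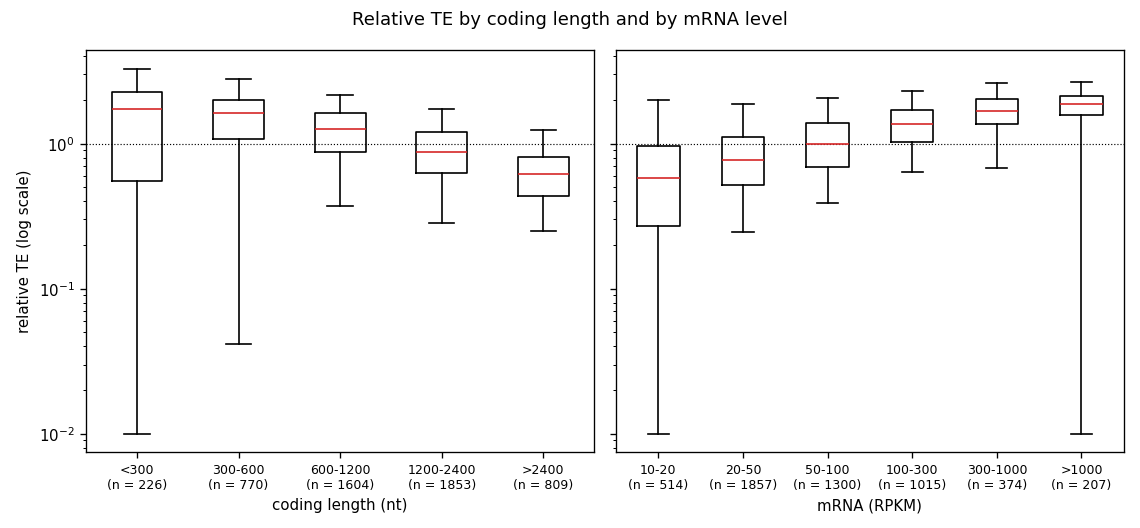
Relative TE on a log scale by coding length (left) and by mRNA level (right); boxes span the 25th to the 75th percentile with the median in red, whiskers reach the 5th and 95th percentiles, values under 0.01 are drawn at 0.01, and n is the number of genes. Medians fall from 1.74 in genes under 300 nt to 0.619 in genes over 2400 nt, and go up from 0.581 at 10 to 20 RPKM to 1.89 above 1000 RPKM.

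Coding length and mRNA level overlap with function, so each list was also set against the genes of its own classes. Members of the large cytosolic subunit had a median of 1.27 times the median of their length class, and 1.08 times that of their mRNA class. Most of them fall in the class over 1000 RPKM, where 115 of 207 genes are cytosolic ribosomal proteins, so the second value compares the list largely with itself. Glycolysis genes, which are long by comparison, stood at 1.81 times their length class, with all 20 above it, and at 1.06 times their mRNA class. Respiratory complexes III and IV stood at 1.39 and 1.32, with 21 of 22 genes above the class median on both counts, and mitochondrial ribosomal proteins at 1.295 and 1.27. Plasma membrane transporters were at 0.972 of their length class but at 0.658 of their mRNA class, and fatty acid and phospholipid genes at 0.954 and 0.642. Transcription factors stood at 1.06 and 0.948, with 29 of 45 genes above their length class. Protein kinases stood at 0.901 and 0.953, and G1 and S phase genes at 0.977 and 0.790. Galactose genes stood at 0.736 and 0.837, and sucrose use and sugar transport at 0.846 and 0.540. The list for ethanol and other poor carbon sources stood at 0.796 and 0.924. Ergosterol genes were above their length class, at 1.13, and below their mRNA class, at 0.832. The translation lists did not keep the order of their plain medians. Against length class and mRNA class, the small cytosolic subunit stood at 1.23 and 1.04. Cap-binding genes stood at 1.66 and 1.07, and other initiation factors at 1.25 and 0.843. Elongation and termination factors stood at 1.49 and 0.797, and tRNA synthetases at 1.75 and 0.878.

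The 15 named genes with the highest relative TE were ranked by the lower bound of the counting interval. They ranged widely in mRNA level, from 13.6 to 1679 RPKM, beside a median of 55.7 RPKM over all genes. LSO2, a short ribosome-associated protein, led with 31.2 RPKM mRNA (26 reads) and 206 RPKM footprints (295 reads), a relative TE of 8.73 with an interval of 5.84 to 13.6. VPS24, a subunit of the ESCRT-III membrane-remodelling complex, had 13.6 RPKM mRNA (29 reads) and 76.5 RPKM footprints (280 reads), a relative TE of 7.43 (5.06 to 11.3). RPS29B, a ribosomal protein with a close paralogue, was the most abundant of them, with 1679 RPKM mRNA, 6322 RPKM footprints and 4.98 (4.62 to 5.37). With few mRNA reads the first 2 of these are known only within wide bounds, whereas RPS29B rests on 807 mRNA reads.

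Several of the others act in mitochondria. COX9 and TIM17, a channel subunit of the inner-membrane translocase, stood at 4.73 and 4.68, COX14, a cytochrome oxidase assembly factor, at 3.72, and OM45, an outer-membrane protein, at 4.62 from 24.03 RPKM mRNA. Ribosome-related genes were NOP16, PXR1, SAS10 and GAR1, which act in ribosome or snoRNP assembly, at 4.20, 4.35, 3.91 and 3.45, and TMA7, a ribosome-associated protein, at 3.56. FCY1, cytosine deaminase, had 4.59, the Sm-like protein LSM3 4.24 and the transcription elongation factor RTF1 3.86. Of the 15, 8 had a coding length under 600 nt. Among all 5267 genes, 226 were under 300 nt and 770 from 300 to 600 nt.

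The same genes were high in cultures not used to choose them. In the other 5 YPA cultures, which differ from this one in strain, galactose or temperature, all 75 values of these 15 genes were above 2, from 2.53 for SAS10 to 16.4 for VPS24, and in 4 of the 75 the mRNA was under 10 RPKM. RPS29B kept between 4.20 and 6.22 and COX9 between 4.20 and 5.87.

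**Figure D4:**
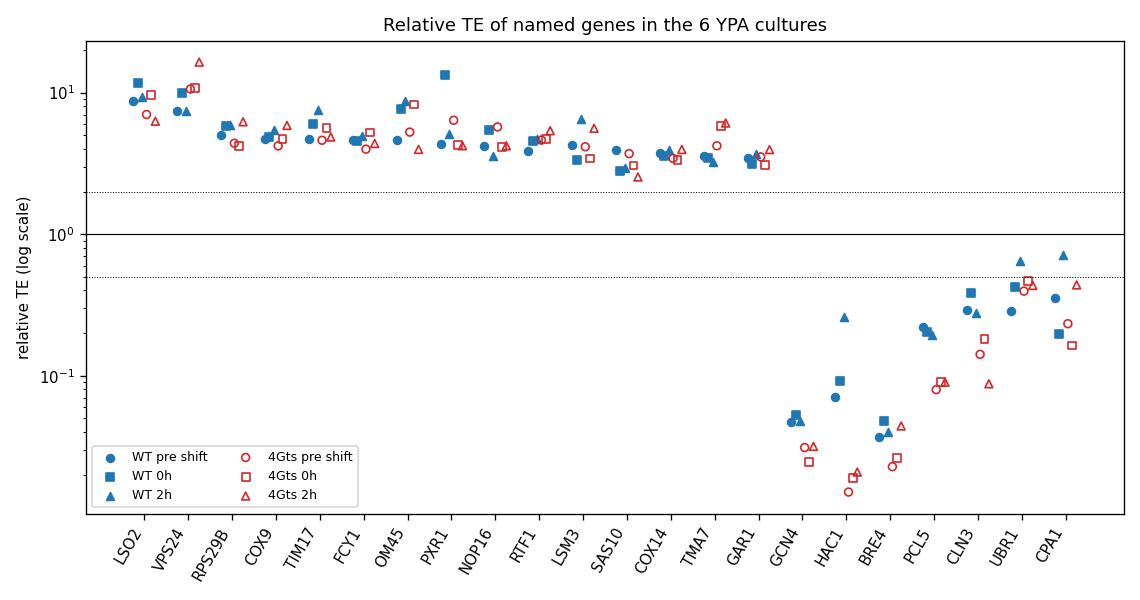
Relative TE on a log scale for the 15 genes with the highest values and for 7 named genes with low ones, in the 6 YPA cultures; filled blue symbols are WT and open red symbols 4Gts, with circles before the shift, squares at 0 h and triangles at 2 h, 1 culture each. The 15 genes at the left lie above 2 in every culture, and GCN4 lies between 0.0245 and 0.0530.

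The bottom of the TE range belonged to the mitochondrial genome. All 15 named genes with the lowest upper bounds were encoded there, and all 19 such genes lay under 0.5, with a median relative TE of 0.00107. Of the 19 frames, 13 overlap another in the reference table, such as the intron frames AI1 to AI5_ALPHA with COX1, so reads could be counted more than once in a sum. The 6 that overlap none held 0.603% of the mRNA reads and 0.000409% of the footprint reads, and their relative TE was at most 0.00214. COX1, subunit 1 of cytochrome oxidase, had 1443 RPKM mRNA from 7460 reads and 1.24 RPKM footprints from 11 reads. COB, cytochrome b, had 2078 RPKM mRNA and 2.51 RPKM footprints, and ATP6, a subunit of the ATP synthase, had 1019 RPKM mRNA and 1.65 RPKM footprints. These messages are translated inside the organelle by the mitochondrial ribosome, and whether its footprints were recovered by this protocol was not tested. Most nuclear-encoded subunits of the same oxidase were above the middle gene, with COX4, COX5A and COX6 at 2.19, 2.68 and 2.24, but COX5B, the form of subunit 5 used at low oxygen, stood at 0.9502 from 36.1 RPKM mRNA.

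Among nuclear genes the lowest values came from very few footprints. In the 15 nuclear genes with the lowest upper bounds, chosen after the mitochondrial result was seen, no gene had more than 6 footprint reads and 6 had none. MTC7 had 1454 RPKM mRNA from 1883 reads and 2.69 RPKM footprints from 6 reads. It starts 29 nt past the end of HYP2 on the same strand, in the reference table (assembly R64), and HYP2 has 5035 RPKM mRNA. YCR024C-B, with 716 RPKM mRNA and 2 footprint reads, starts 79 nt past PMP1, a proteolipid gene with 822 RPKM mRNA. YOR072W-B, with 986 RPKM mRNA from 445 reads and no footprint, and YJL047C-A, with 1342 RPKM mRNA from 487 reads and 1 footprint read, were as abundant but had no higher same-strand gene within 500 nt upstream. In 5 of these 15 genes a same-strand gene of higher mRNA level ended within 500 nt upstream, so their mRNA reads cannot be told apart from reads of a neighbour's transcript end.

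NDJ1, a meiotic telomere protein, had 142 mRNA reads, 42.0 RPKM, and no footprint, and the upper bound of its interval is 0.0202. ISC10 and ADY3, both of sporulation, had 31.0 and 17.8 RPKM mRNA and at most 2 footprint reads, and both belong to the 5 genes with a higher neighbour. PRM7, a pheromone-regulated gene, had 15.6 RPKM mRNA and no footprint. In the list of meiosis and sporulation genes only SPS4, at 13.6 RPKM mRNA and a relative TE of 0.0524, passed the floor out of 14, and IME2 and SMK1, meiotic kinases, had 3.99 and 0.268 RPKM mRNA and no footprint. The potassium transporter TRK2 had 207 mRNA reads and 4 footprint reads. POL4, a DNA repair polymerase, which also has a higher neighbour, had 80 and none. In the other 5 YPA cultures all 75 values of the 15 nuclear genes stayed under 0.5, the highest being 0.0914, for POL4.

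Abundant messages with few ribosomes stood out among genes known for control at the level of translation. GCN4, the activator of amino acid synthesis whose leader holds short upstream frames, had 1391 RPKM mRNA from 3739 reads and 49.8 RPKM footprints from 230 reads, a relative TE of 0.0473 (0.0412 to 0.0541). HAC1, the unfolded protein response factor whose unspliced mRNA is held back from translation, had 1407 RPKM mRNA and 74.9 RPKM footprints, a relative TE of 0.0705 (0.0623 to 0.0795). Both messages were more abundant than any of the 63 ribosome biogenesis or 18 tRNA synthetase messages, yet ranked 2321 and 1806 among all genes in footprints. PCL5, a cyclin that promotes Gcn4 breakdown, stood at 0.222 (0.177 to 0.277) from 165 RPKM mRNA. It is not in the list of genes with regulatory upstream frames or leaders. Members of that list that were also low were CLN3, a G1 cyclin, at 0.292 (0.240 to 0.353) from 70.3 RPKM, and CPA1, at 0.355 (0.293 to 0.429) from 88.6 RPKM. CPA1 is an arginine-synthesis enzyme with an arginine-sensing leader peptide.

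Not all genes with such leaders were low. The list of 24 genes with regulatory upstream frames or leaders had a median of 0.838, with 7 under 0.5 and 1 above 2, beside 16.4% under 0.5 and 9.06% above 2 among all genes. YAP1, a stress transcription factor, stood at 0.919 and SCO1, a copper chaperone of cytochrome oxidase, at 2.27. Of the 45 transcription factors, GZF3, a GATA repressor, was also far down at 0.0332, with 43.5 RPKM mRNA and 1.09 RPKM footprints, whereas CBF1 and PHO4 lay at 2.64 and 2.30. Other low genes with over 100 mRNA reads were BRE4, at 0.0370 (0.0217 to 0.0593), and the ubiquitin ligase UBR1, at 0.286 (0.251 to 0.324). UBR1 had its lowest levels of the 6 YPA cultures here, 47.6 RPKM mRNA and 10.3 RPKM footprints. Its highest YPA levels were 2476 and 1154 RPKM, and the reason for this range was not tested.

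These low values differed in how far they held in other cultures. GCN4 stood between 0.0245 and 0.0530 in the 6 YPA cultures. HAC1 stood at 0.0917 in WT at 0 h and 0.260 in WT at 2 h, and between 0.0151 and 0.0209 in the 3 cultures of 4Gts. GAL1 stood at 0.343 here, at 1.51 in WT at 0 h, after galactose, and at 2.45 in WT at 2 h, but also at 1.08 in 4Gts before any galactose. Each is 1 culture, so none of these differences has a replicate.

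Subunits of some complexes had closely matched footprints. These subsets were chosen after values were seen. The 14 subunits of the 20S proteasome core lay between 187 and 274 RPKM in mRNA and between 245 and 308 RPKM in footprints, and the SD of log2 levels was 0.17 in mRNA and 0.11 in footprints. The 8 subunits of the CCT chaperonin ring, which folds actin and tubulin, lay between 165 and 285 RPKM in footprints, with an SD of 0.23, against 0.22 in mRNA. The 19 subunits of the regulatory particle of the proteasome spread more, from 131 RPKM for RPN9 to 356 RPKM for SEM1 in footprints, with an SD of 0.35, against 0.28 in mRNA. The 5 subunits of eIF2B lay between 69.6 and 89.1 RPKM footprints, while the 5 core subunits of eIF3 ranged from NIP1 at 223 RPKM to TIF34 at 502 RPKM, wider than their mRNA, which ranged from 298 to 402 RPKM.

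**Figure D5:**
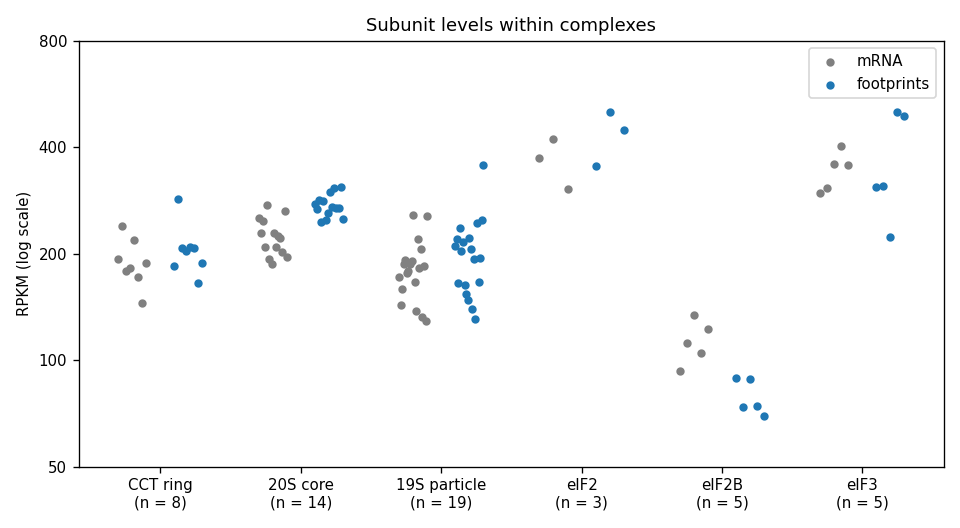
Levels of mRNA (grey) and footprints (blue) in RPKM, on a log scale, for the subunits of 6 complexes, 1 point per gene. The 14 subunits of the 20S core lie between 245 and 308 RPKM in footprints, and the 5 eIF3 subunits spread from 223 to 502 RPKM.

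Partner subunits that assemble in equal numbers gave a mixed picture. In 15 such pairs the median ratio of the higher to the lower partner was 1.22 in mRNA and 1.12 in footprints, and 8 of the 15 pairs were closer in footprints than in mRNA. FAS1 and FAS2, the fatty acid synthase chains, differed 1.29-fold in mRNA and 1.08-fold in footprints, at 584 and 540 RPKM. EGD1 and EGD2 were at 2535 and 2523 RPKM footprints, and SPT16 and POB3, the histone chaperone FACT, were 1.59-fold apart in mRNA and 1.04-fold in footprints. The opposite held for RPB3 and RPB11 of RNA polymerase II, which were 1.53-fold apart in mRNA and 2.68-fold in footprints, and for UFD1 and NPL4, at 1.15-fold and 1.58-fold. Alpha-tubulin summed over TUB1 and TUB3 had 467 RPKM footprints and beta-tubulin, TUB2, had 397. The sums for histones H2A, H2B, H3 and H4 were 3540, 4168, 4517 and 3025 RPKM footprints.

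At 36 °C both tails of relative TE reached further than here, while the SD of log2 TE differed little in the other 5 YPA cultures. Their SD of log2 TE ranged from 1.21 to 1.33, beside 1.21 here, r between footprints and mRNA from 0.814 to 0.862, beside 0.867, and the slope from 1.42 to 1.57, beside 1.45. The 95th percentile of relative TE, 2.24 here, was 2.33 in WT at 0 h, 2.40 and 2.48 in 4Gts before the shift and at 0 h, and 2.82 and 3.19 in WT and 4Gts at 2 h, the 36 °C cultures. Genes above 2 numbered 907 in WT at 2 h and 997 in 4Gts at 2 h, against 477 here. Genes under 0.5 numbered 1073 in WT at 2 h and 1109 in 4Gts at 2 h, against 865 here. The 5th percentile was 0.164 and 0.154 in these cultures, beside 0.223 here. The footprint library of 4Gts at 2 h was the shallowest in YPA, with 1352259 reads.

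Gene by gene, log2 TE correlated with that of the other cultures at r = 0.948 for WT at 0 h, 0.922 for WT at 2 h, 0.929 for 4Gts before the shift, 0.928 for 4Gts at 0 h and 0.879 for 4Gts at 2 h, over 5085 to 5153 genes that had footprints in both. Of the 477 genes above 2 here, 362 were above 2 in WT at 0 h, 75.9% of the first list and 69.9% of the second. WT at 2 h shared 411 (86.2% and 45.3%), 4Gts before the shift 326 (68.3% and 60.7%), 4Gts at 0 h 353 (74.0% and 54.3%) and 4Gts at 2 h 406 (85.1% and 40.7%). The lists of the 36 °C cultures were thus longer and held most of the genes named here beside many others. Of the 865 under 0.5, 656 to 686 were under 0.5 in each of the 5 cultures, 75.8% to 79.3% of the list here and 59.2% to 76.7% of the other lists. In the 8 SC cultures, all at 36 °C, the SD was wider, 1.59 to 1.83, and r was lower, 0.643 to 0.715. The YPA cultures at 36 °C, WT and 4Gts at 2 h, had SDs of 1.33 and 1.32 and r of 0.832 and 0.814. The SC and YPA cultures differ in medium, and whether their reads were processed alike was not tested.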

How the data were processed

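Footprints and fragmented, rRNA-depleted mRNA of 1 culture were compared. Per the labels' protocols, cycloheximide (0.1 mg/ml) was added before harvest, and mRNA fragments of 26 to 40 nt were selected; how cycloheximide affects footprints near start codons was not tested. The submitters' processing notes list TopHat, DESeq and the sacCer3 build, without versions; neither strand use nor the counting rule was found there. Values deposited by the authors are RPKM for 6692 genes and, for fewer genes, a ratio of footprints to mRNA.

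In the mRNA library, RPKM steps gave whole reads (within 0.001 reads) for 94.9% of genes when 24 nt, or 8 codons, were taken off the coding length, and the authors' deposited ratio equals the RPKM ratio times 1.44 in this culture, which leaves relative TE unchanged. Names came from RefSeq (assembly R64; 6008 genes matched). Intervals of TE are exact 95% (Clopper-Pearson) counting intervals from those reads, and those of read shares are 95% Wilson intervals. PCR copies are not told apart. Analysis used Python 3.11.15, NumPy 2.4.6, SciPy 1.17.1 and pandas 2.3.3, and the interval and read recovery were tested on simulated data. No count test was run, since there is 1 library of each kind.

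Named genes were the 15 highest in mRNA and in footprints, the 15 with the highest lower and the 15 with the lowest upper bound of TE, in each of 49 lists members with the extreme bounds, and a preset set; pairs, complexes and nuclear low genes were added after values were seen. The rule, members and lists were chosen with earlier results of these data known. Alternatives were other floors, 1 RPKM added to both values, the authors' ratio, at least 100 reads, matched genes only and other cultures.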

Additional observations from a re-analysis of the deposited data

How the results depend on the processing

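The settings tried were those named with each value here. The SD of log2 TE, 1.21, fell to 0.758 over the genes of the authors' deposited ratio table, to 0.752 over genes with at least 100 reads in both libraries and to 1.07 without the mitochondrial genome (a setting chosen after seeing the data). Pearson's r, 0.867, was 0.801 at a floor of 50 RPKM and 0.952 over genes with at least 100 reads in both. The slope, 1.45, was 1.20 by least squares. The 477 genes above 2 became 88 at a floor of 50 RPKM, 253 among the genes of the authors' table and 246 when the whole interval had to pass, and the 865 genes under 0.5 became 361, 471 and 527. At floors of 1 and 20 RPKM, and with 1 RPKM added to both, these counts stayed within 1.5 times. The floor of 50 RPKM also resets the median gene. With the reported median, 26 genes above 2 lay at 10 to 20 RPKM mRNA and 78 at 20 to 50. Another 83 lay at 50 to 100 RPKM, 116 at 100 to 300, 98 at 300 to 1000 and 76 beyond. Most genes above 2 thus had at least 50 RPKM mRNA, and the count of 88 rests on a different median. Under 0.5, the same classes held 220, 433, 144, 30, 16 and 22 genes. Of the 47 lists, 33 had a median above 1, and 31 to 36 under the settings tried; a median over 1.5 was held by 19 as reported, 22 at a floor of 1 RPKM, 15 of 46 at 20 RPKM, 6 of 46 at 50 RPKM and 16 to 23 in the other settings and cultures tried. Of the 15 highest genes 12 remained in a plain ranking of genes with at least 50 mRNA reads, 11 with 1 RPKM added and 9 among genes with at least 100 reads in both libraries; of the 15 lowest, 6 and 11 remained under the first 2 settings and 0 among nuclear genes, by construction. TE by start context and upstream ATG was not run, since it needs sequence. No paired analysis was possible because no result comes from a test between groups. Depth limits the low end: the 15 lowest nuclear genes have at most 6 footprint reads each.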

Other observations

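Of the frames at or above 10 RPKM mRNA, 108 are listed only by an identifier that the reference table does not name. Their median relative TE was 0.212, and 72 of them (66.7%) were under 0.5 and 5 above 2. The highest of them in relative TE was YBR126W-B, with 311 RPKM mRNA, 741 RPKM footprints and 3.15, followed by YIL156W-A at 2.61 and YLR280C at 2.52, both under 20 RPKM mRNA, YDR433W at 2.495 and YPR169W-A at 2.36. YFR052C-A, with 3560 RPKM mRNA and 2502 RPKM footprints, was close to the middle gene at 0.9297, and YMR013W-A had 1556 RPKM mRNA and no footprint. Overlap of these frames with named genes was not tested, and reads of overlapping genes cannot be told apart here. The 108 include Q0182, whose identifier has the mitochondrial form and which the 19 mitochondrial genes above leave out.

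Footprints were listed at 0 for 65 genes above the floor, 39 of them named in the reference table, with a median of 21 mRNA reads. Splicing genes, with a median relative TE of 1.10, held some of the widest differences within a list: the small Sm proteins SMD3 and SMX3 stood at 3.73 and 3.21, and the very large PRP8 at 0.351.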
